A study of Homo sapiens with 12 samples.

Results

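KRT7, KRT8, KRT18 and KRT19 are the keratins of simple epithelia, and in the breast they are best known from the luminal cells that line ducts and alveoli. These 4 genes were chosen by name from the 61533 gene entries of each library, each matched by its Ensembl identifier and kept apart from its pseudogenes. Of the 4, 3 passed the count filter that left 15616 genes for testing, and KRT19 did not. They were followed across 4 lines derived from HMLE cells, an immortalised human mammary epithelial line. The control line carried no named transgene, the CT83 line overexpressed CT83, the HORMAD1 line overexpressed HORMAD1, and the double line overexpressed both. CT83 is an X-linked gene of the cancer/testis class, and the HORMAD1 protein belongs to the chromosome axis of meiotic cells. All 4 lines had been through puromycin selection, and no further treatment is labelled. Polyadenylated RNA was sequenced in 3 libraries per line, 12 in all. The labels name 1 line per construct, so an effect of a transgene and a difference between lines cannot be told apart. Whether replicates came from separate cultures is not labelled, and the p-values therefore measure only the spread between libraries, which may be technical.

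Keratins are intermediate filament proteins. A type II keratin pairs with a type I keratin in an obligate heterodimer, and such dimers build the filament network that gives an epithelial cell its mechanical strength. KRT7 and KRT8 are type II, and KRT18 and KRT19 are type I. KRT8 and KRT18 are the usual partners in simple epithelia, and an unpaired keratin protein is generally degraded. In the mammary gland, KRT5, KRT14 and KRT17 mark the basal layer. KRT7 can be found in both luminal and cultured basal-like cells, while KRT19 is a common luminal marker.

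The genes lie in the keratin clusters of the genome. Identifiers are those of the deposited values, matched without their version number to GENCODE 29 on GRCh38, which gives the coordinates. KRT7 (ENSG00000135480.17) spans chr12:52232520-52252186 on the plus strand, KRT8 (ENSG00000170421.13) chr12:52897187-52949954 on the minus strand, and KRT18 (ENSG00000111057.11) chr12:52948871-52952901 on the plus strand. KRT19 (ENSG00000171345.13) spans chr17:41523617-41528308 on the minus strand. KRT18 is a type I gene that sits beside the type II cluster, next to its partner KRT8. The coding sequences of the 2 type II members, KRT7 and KRT8, were 76.1% identical over 1350 aligned bases, and those of the 2 type I members, KRT18 and KRT19, 66.6% over 1154. The 4 pairs of a type II with a type I member were 59.6% to 65.1% identical.

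Library totals ranged from 9898845 to 14159740 expected counts. HORMAD1 and CT83 followed the labels: both were at 0 counts in every library not labelled with them. HORMAD1 averaged 290.0 ± 75.5 CPM (SD, n = 3; CPM are counts per library scaled to a common depth) where it was the sole transgene, and 314 ± 31.8 CPM in the double line. CT83 averaged 523 ± 175 CPM in its own line, against 102 ± 15.6 CPM in the double line. Control replicate 2, CT83 replicate 3 and HORMAD1 replicate 1 had the most positive trends on transcript length. In each of these 3 libraries log2 CPM, relative to the mean of all libraries, rose by 0.03 to 0.06 per doubling of transcript length, against -0.05 to 0.01 in the other 9. Calls of simple keratins that change without these libraries are given with and without them. The 3 are the positive end of a spread: double replicate 1, at -0.05, lay farther from 0 than control replicate 2, at 0.03, and was not among them.

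Of the 4 simple keratins, 3 were among the abundant keratin transcripts of these cells and 1, KRT19, was barely detected. Per kilobase of transcript, KRT7 ranked 1st of the 55 keratin genes listed, KRT8 5th, KRT18 8th and KRT19 19th. The mean levels over 12 libraries were 2197 ± 132 CPM per kb (SD) for KRT7, 1014 ± 147 for KRT8, 676 ± 79.3 for KRT18 and 0.461 ± 0.272 for KRT19. Neighbours in this order did not overlap across the 12 libraries: KRT7 spanned 1949 to 2423 CPM per kb, KRT8 831 to 1251, KRT18 556 to 803, and KRT19 0.121 to 1.07. Lengths came from 1 principal transcript per gene, 2126 bases for KRT8. On coding length in place of transcript length the means were 2738, 1488, 819 and 0.534 CPM per coding kb, in the same order.

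Beside them stood keratins of the basal layer and of hair. KRT5 reached 1152 ± 86.9 CPM per kb (SD, n = 12), the basal KRT17 992 CPM per kb and KRT14 304 CPM per kb. The hair keratins KRT81 (1607 CPM per kb) and KRT86 (1473 CPM per kb) ranked 2nd and 3rd. KRT81 lies within the span of KRT86 on the other strand, and its count was 91.2% to 97.3% of the KRT86 count in every library. Whether the 2 entries share reads was not tested, so their values are not taken as separate genes here. The 4 simple keratins together made up 36.7% ± 1.68 (SD, n = 12) of all keratin transcripts per length, or 51.7% ± 2.59 with KRT81 and KRT86 left out. Among the simple keratins, KRT7 held 51.5% to 63.6%, KRT8 21.8% to 30.2% and KRT18 14.6% to 18.9%.

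**Figure D1:**
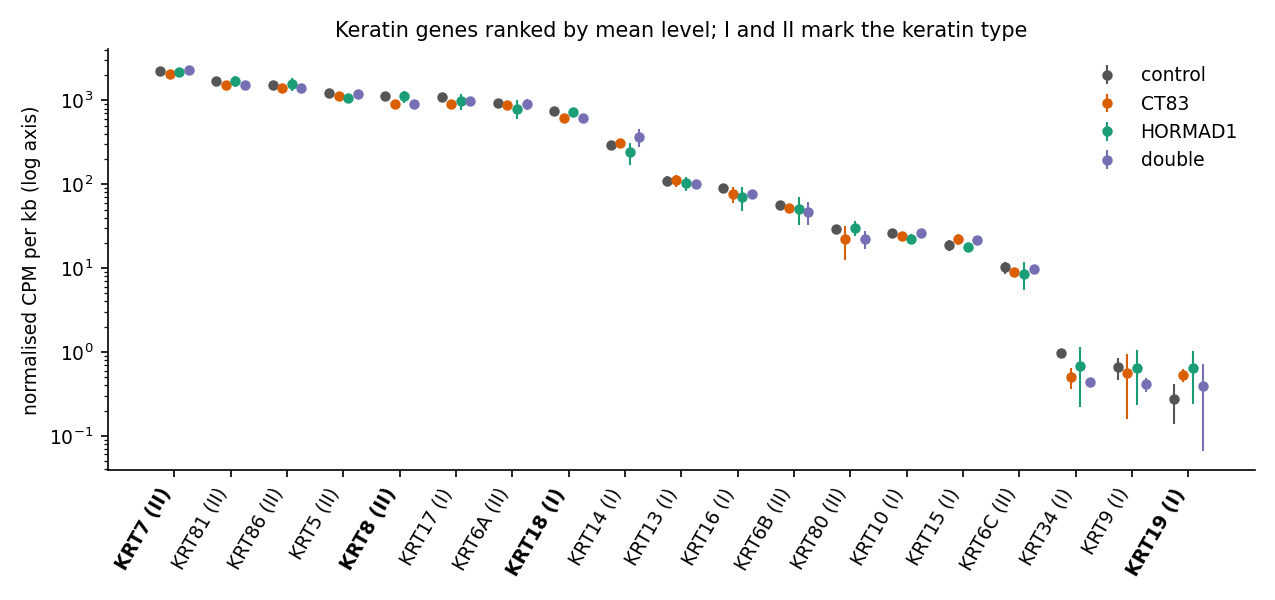
Normalised CPM per kb of transcript (log axis) for the 19 highest keratin genes, ordered by the mean of 12 libraries, with I and II marking the keratin type and the simple keratins in bold. Points are means of 3 libraries per line and bars 1 SD: KRT7 is the highest in every line, KRT8 and KRT18 lie among the basal keratins, and KRT19 is below 1 CPM per kb on average.

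The description as luminal keratins was checked against other markers, and it held only in part. KRT19 had 2 to 17 counts per library. Of 22 luminal lineage genes, 13 passed the filter. The surface glycoprotein CD24 (386 CPM on average), the aldehyde dehydrogenase ALDH1A3 (349 CPM) and the adhesion molecule EPCAM (189 CPM) were the highest. The luminal transcription factors GATA3 (8.46 to 16.1 CPM) and FOXA1 (9.76 to 14.3 CPM) were low. EHF (71.1 to 102 CPM), XBP1 (76.1 to 115 CPM) and CLDN4 (88.2 to 150 CPM), also on the luminal list, were higher. The hormone receptor PGR and the progenitor receptor KIT had 0 counts in all libraries, which allows up to 3 counts in each, and the estrogen receptor ESR1 did not exceed 1.28 CPM. Of 20 basal lineage genes, 19 passed, and KRT5 and KRT17 averaged 2917 and 1638 CPM. Others on the basal list were low: CNN1 did not exceed 0.135 CPM, OXTR 2.37, ACTA2 6.95, THY1 13.9 and TAGLN 19.8 CPM. As the luminal description held only in part, the label simple keratins is used below. The 9 fibroblast markers summed to 27.0 to 93.3 CPM per library, 5 endothelial markers to at most 1.69 and 5 leukocyte markers to at most 1.93. Of 6 adipocyte and melanocyte markers, PMEL averaged 97.5 CPM and the next highest, MLANA, 0.489 CPM. In bulk RNA, fewer cells of a type and less RNA per cell cannot be told apart.

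KRT8, the type II partner of KRT18, had lower values in both lines that carried CT83. In the control line its level was 2266, 2611 and 2350 CPM in replicates 1 to 3, and the HORMAD1 libraries stood at 1949, 2659 and 2503 CPM. In the CT83 line it was 1916, 1866 and 1981 CPM, and in the double line 1891, 2109 and 1766 CPM. All 6 libraries with CT83 thus lay below all 3 control libraries, as they did for 1.29% of all tested genes, while HORMAD1 replicate 1 lay within the range of the CT83-carrying libraries. Line means were 2409 ± 180, 2370 ± 373, 1921 ± 57.9 and 1922 ± 174 CPM (SD, n = 3) for the control, HORMAD1, CT83 and double lines. The first and second of these means differ by less than their spread, as do the last pair.

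KRT18, the type I partner, was low and high in the same lines as KRT8. In the control line its level was 1123, 1255 and 1137 CPM in replicates 1 to 3, and the HORMAD1 libraries stood at 991, 1187 and 1204 CPM. In the CT83 line it was 965, 931 and 1016 CPM, and in the double line 937, 1057 and 868 CPM. Here too the 6 libraries with CT83 lay below the 3 control libraries, as for 1.29% of all tested genes, and HORMAD1 replicate 1 lay among the former. Line means were 1172 ± 72.4, 1127 ± 119, 971 ± 42.6 and 954 ± 95.7 CPM (SD, n = 3) for the control, HORMAD1, CT83 and double lines.

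KRT7 was the steadiest member. Its level was 3886, 3890 and 4122 CPM in the control libraries and 3786, 3747 and 3872 CPM in the HORMAD1 libraries. In the CT83 line it was 3490, 3419 and 3893 CPM, and in the double line 3920, 3962 and 4249 CPM. The 3 HORMAD1 libraries lay just below the 3 control libraries, and the 3 double libraries above those of both single lines, as did the double libraries for 6.29% of all tested genes against the HORMAD1 line. The coefficient of variation over all 12 libraries was 5.99% for KRT7, against 14.5% for KRT8 and 11.7% for KRT18.

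KRT19 did not pass the count filter and so had no value in the reported fit. It had 6, 6 and 2 counts in the control libraries, 7, 9 and 9 in the CT83 libraries, 6, 8 and 17 in the HORMAD1 libraries, and 12, 3 and 3 in the double libraries. The line means ran from 0.383 ± 0.189 CPM in the control line to 0.889 ± 0.553 CPM in the HORMAD1 line (SD, n = 3). The 3 CT83 libraries lay above the 3 control libraries, but the lowest of the former was at 0.600 CPM and the highest of the latter at 0.525 CPM. Counts this low do not tell the 2 lines apart. The HORMAD1 and double libraries overlapped the control libraries. Fitted with no low-count filter, KRT19 had log2 fold changes against control of 0.93 (SE 0.61) in the CT83 line, 1.16 (SE 0.59) in the HORMAD1 line and 0.50 (SE 0.64) in the double line, with edgeR adjusted p values of 0.948, 1 and 0.943. It also passed the filter in 11 of the 12 fits that left out 1 library. There the values ran from 0.60 to 1.21, from 0.81 to 1.55 and from -0.43 to 0.85 in these lines, and none was called.

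**Figure D2:**
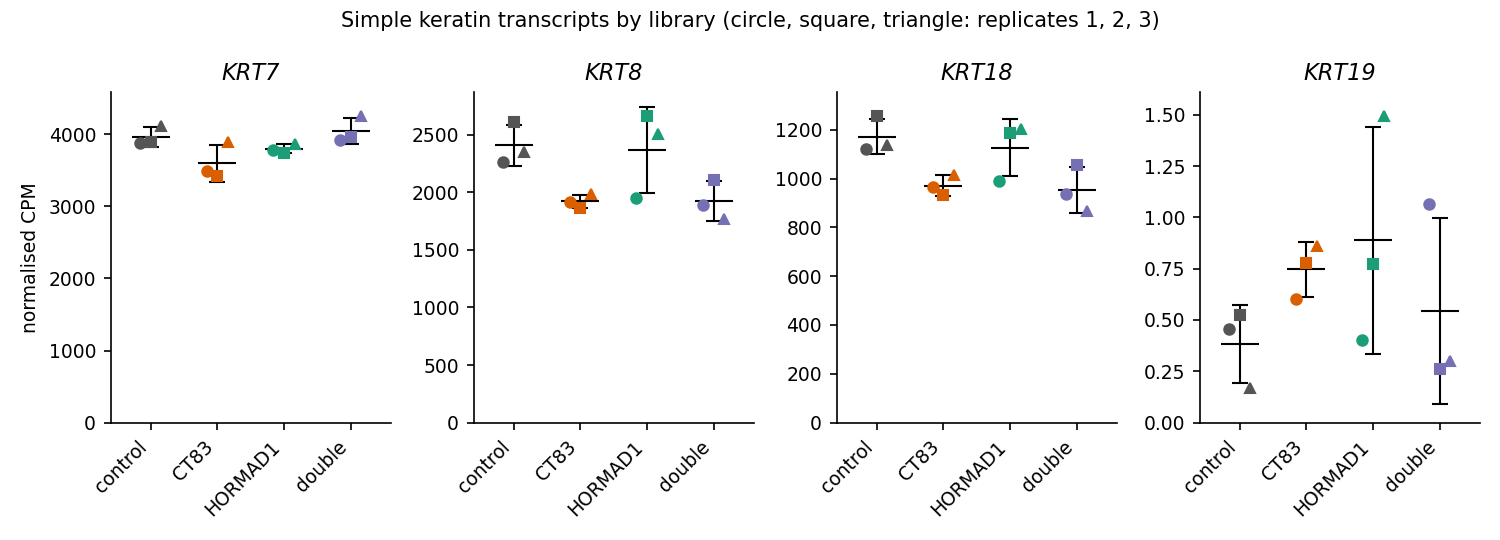
Normalised CPM (linear axes from 0) of each simple keratin in each library, with circles, squares and triangles for replicates 1, 2 and 3 and bars for the mean and SD of each line. KRT8 and KRT18 are lower in the 6 libraries of the CT83 and double lines than in the 3 control libraries, with HORMAD1 replicate 1 at 1949 and 991 CPM, while KRT7 stays between 3419 and 4249 CPM and KRT19 below 1.5 CPM.

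In the comparison of each overexpressing line with control, none of the 3 testable members was called by edgeR's quasi-likelihood test at a Benjamini-Hochberg adjusted p under 0.05, nor by DESeq2 or limma-voom. The share of all tested genes called was 0.0064% for CT83 against control, 0.0064% for HORMAD1 against control and 0.0256% for the double line against control, so few genes of any kind were called. Without adjustment, p was under 0.05 for KRT8 and KRT18 against control in the CT83 line and in the double line, and for no member in the HORMAD1 line. Of all tested genes, 2.74% had an unadjusted p under 0.05 in the CT83 line, 1.82% in the HORMAD1 line and 5.56% in the double line.

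In the CT83 line KRT8 had a log2 fold change of -0.33 against control (SE 0.11) and KRT18 of -0.27 (SE 0.10), both with an edgeR adjusted p of 0.984. On the linear scale these are changes of -20.3% and -17.1%, neither of which was called. Libraries without overlap and lower than control were found for these 2 members, and for 5.73% of all tested genes. KRT7 had a log2 fold change of -0.14 (SE 0.08). Of all tested genes, 4.23% had a log2 fold change as low as that of KRT8 and 5.75% as low as that of KRT18. Among the 627 most abundant genes the shares were 0.797% and 1.91%. Without the 3 libraries named above the values were -0.29 for KRT8, -0.25 for KRT18 and -0.21 for KRT7, with edgeR adjusted p values of 0.0593, 0.114 and 0.11.

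In the double line KRT8 had a log2 fold change of -0.33 against control (SE 0.11) and KRT18 of -0.30 (SE 0.10), with an edgeR adjusted p of 0.797 for both. Again the double libraries of these 2 members lay below those of control without overlap, as for 7.83% of all tested genes. Of all tested genes, 9.78% had a log2 fold change as low as that of KRT8 and 11.2% as low as that of KRT18, and among the 627 most abundant genes 2.23% and 3.03%. KRT7 was at 0.03 (SE 0.08). The comparisons share the control libraries, so their values stand side by side and are not independent of each other.

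In the HORMAD1 line the log2 fold changes against control were -0.06 (SE 0.08) for KRT7, -0.02 (SE 0.11) for KRT8 and -0.06 (SE 0.10) for KRT18. The 95% interval ran from -0.28 to 0.23 for KRT8 and from -0.28 to 0.17 for KRT18. KRT7 libraries lay below control without overlap, as did those of 3.32% of all tested genes. Without HORMAD1 replicate 1 the values turned to 0.10 for KRT8 and 0.03 for KRT18.

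The design also allows the 6 libraries with CT83 to be set against the 6 without it, as the mean of the 2 differences on the log2 scale, called the CT83 main effect here. KRT8 was at -0.31 (SE 0.08, 95% interval -0.50 to -0.13) and KRT18 at -0.26 (SE 0.07, -0.42 to -0.10). Ranked by p, KRT8 was gene 61 and KRT18 gene 95 of 15616. Neither passed the adjustment: the edgeR adjusted p was 0.308 for KRT8 and 0.355 for KRT18, and 0 members were called, against 0.032% of all tested genes. With DESeq2 the adjusted p values were 0.0733 and 0.129, and with limma-voom 0.353 and 0.38. KRT7, at -0.03 (SE 0.06), lay near the median of all genes, which was -0.0010.

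Among the 12 libraries left out in turn, the absence of a call turned on 1, HORMAD1 replicate 1. Without HORMAD1 replicate 1, the library with the lowest KRT8 and KRT18 outside the CT83-carrying lines, KRT8 was at -0.38 (edgeR adjusted p = 0.0067) and KRT18 at -0.30 (edgeR adjusted p = 0.0291), and 0.612% of all tested genes were called. Without that library, control replicate 2 and CT83 replicate 3 together, KRT8 was at -0.36 (edgeR adjusted p = 0.000123) and KRT18 at -0.29 (edgeR adjusted p = 0.00145). In that setting 761 genes, or 4.86% of all tested genes, were called. These are the 3 libraries with the most positive trend on transcript length, and the part of that trend in the 2 results was not tested beyond removing it: with a smooth length trend taken out of all 12 libraries the values were -0.32 for KRT8 and -0.28 for KRT18, with no call. Without any low-count filter KRT8 alone was called (-0.32, edgeR adjusted p = 0.0164), with 0.213% of the genes then tested. Across the 12 fits that each left out 1 library the effect ranged from -0.38 to -0.27 for KRT8 and from -0.30 to -0.23 for KRT18.

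**Figure D3:**
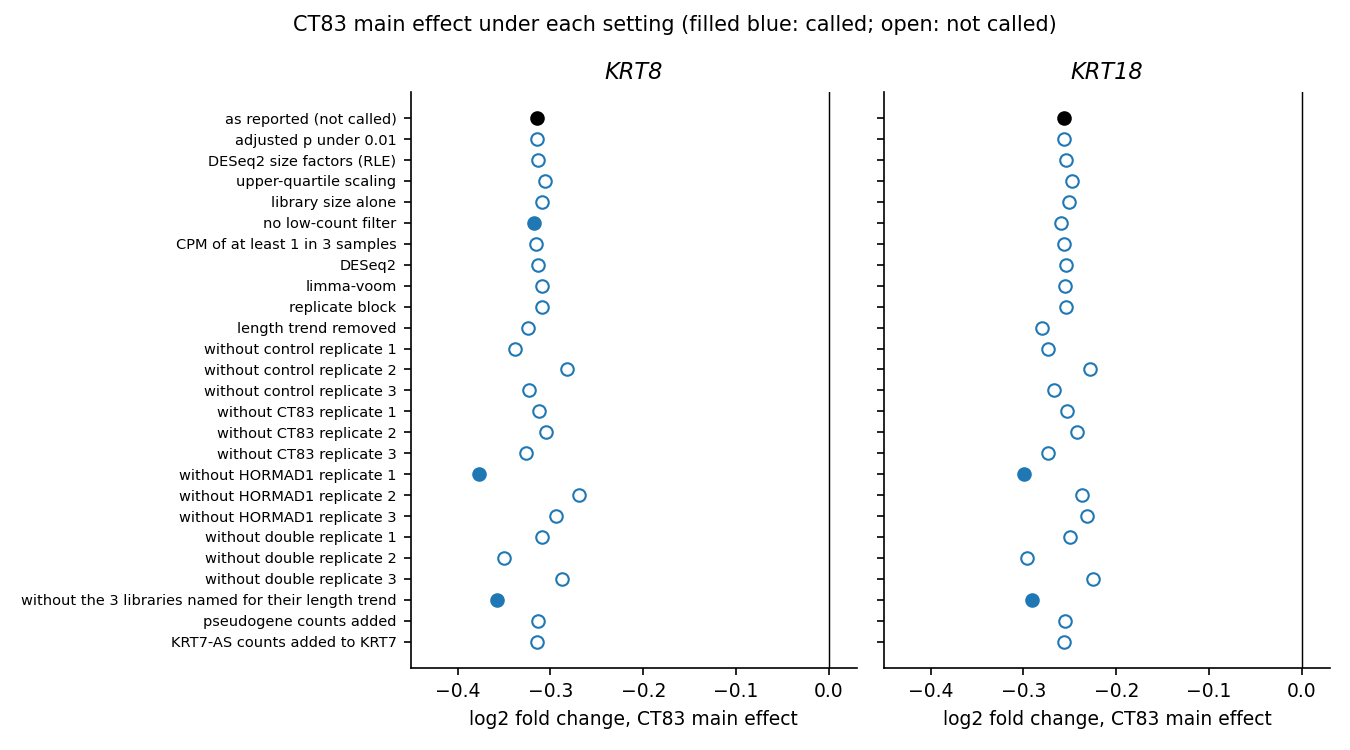
CT83 main effect (log2 fold change) of KRT8 and KRT18 under each processing setting, 1 row per setting, with the reported value in black, filled blue points for settings in which the gene was called and open points where it was not. All points lie below 0, between -0.38 and -0.27 for KRT8 and between -0.30 and -0.23 for KRT18, and filled points stand at no low-count filter (KRT8), without HORMAD1 replicate 1 and without the 3 libraries (both genes).

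The overexpressing lines were also compared directly. KRT8 was at -0.30 (SE 0.11) and KRT18 at -0.24 (SE 0.10) in the double line against the HORMAD1 line, with edgeR adjusted p values of 0.523 and 0.588, and libraries overlapped. In the HORMAD1 line against the CT83 line KRT8 was at 0.30 (SE 0.11) and KRT18 at 0.22 (SE 0.10), with an edgeR adjusted p of 0.978 for both. Called genes made up 0.0448% and 0.0128% of all tested genes in these 2 comparisons. Without HORMAD1 replicate 1 KRT8 was called in both, at -0.43 (edgeR adjusted p = 0.0467, with 0.246% of all genes called) and at 0.43 (edgeR adjusted p = 0.0413, with 0.726%), and KRT18 in neither (edgeR adjusted p = 0.119 and 0.0996). Without the 3 libraries named above both genes were called in both comparisons, where 2.16% and 5.92% of all tested genes were called.

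No member was called for HORMAD1 either. Its main effect, the 6 libraries with HORMAD1 against the 6 without, was 0.05 (SE 0.06) for KRT7, -0.01 (SE 0.08) for KRT8 and -0.04 (SE 0.07) for KRT18, and 0 members were called, against 0.0064% of all tested genes. The interaction, which asks whether the double line differs from the sum of the single lines on the log2 scale, was 0.02 (SE 0.16, 95% interval -0.34 to 0.39) for KRT8 and 0.03 (SE 0.14, -0.29 to 0.35) for KRT18. For KRT7 it was 0.23 (SE 0.12, -0.04 to 0.50, edgeR adjusted p = 0.841), and 0 of 15616 genes were called for the interaction, where 4.5% had an unadjusted p under 0.05. KRT7 was at 0.17 (SE 0.08, edgeR adjusted p = 0.585) in the double line against the CT83 line, with libraries that did not overlap, as for 8.86% of all tested genes in that direction, and 0.0064% of genes were called. Without the 3 libraries named above KRT7 was at 0.23 in that comparison (edgeR adjusted p = 0.0645) and its interaction at 0.30 (edgeR adjusted p = 0.264).

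**Figure D4:**
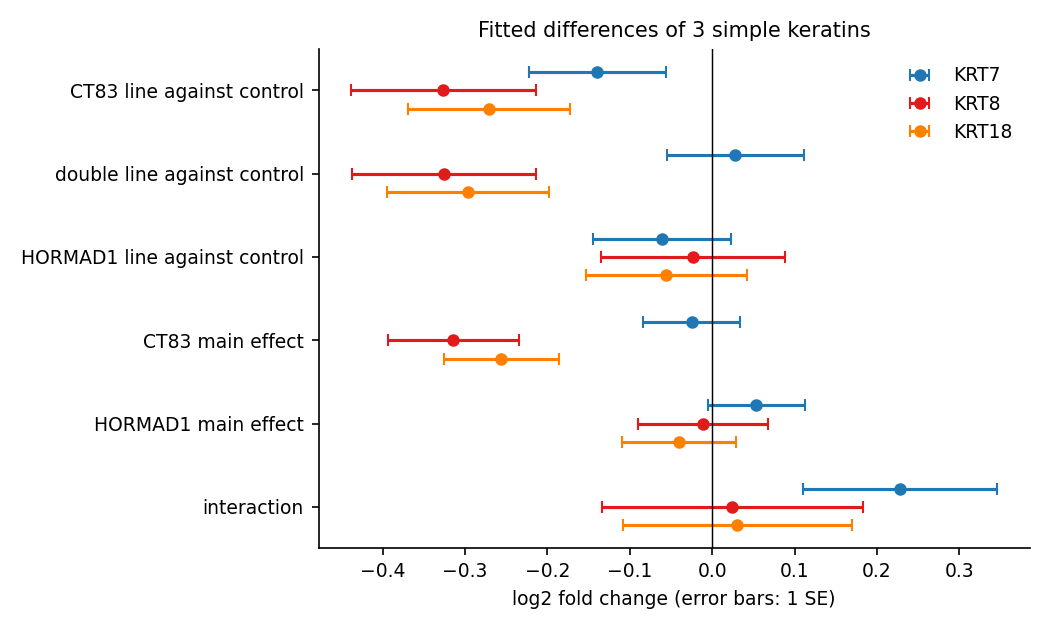
Fitted log2 fold changes of KRT7 (blue), KRT8 (red) and KRT18 (orange) for the 3 comparisons with control, the 2 main effects and the interaction, with bars of 1 SE from 12 libraries. KRT8 and KRT18 lie at -0.33 to -0.26 in the CT83 line, the double line and the CT83 main effect and near 0 in the other rows, while KRT7 lies between -0.14 and 0.23, and none of these values was called.

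KRT8 and KRT18 moved together from library to library as well as between lines. With line means removed, log2 CPM of the 2 genes had a Pearson r of 0.95 over 12 libraries (exact permutation within lines p = 0.00231, Benjamini-Hochberg adjusted over 10 relations 0.0231) and a Spearman rho of 0.95 (exact permutation p = 0.00386, adjusted 0.0386). Leaving out HORMAD1 replicates 1 and 2, the libraries farthest from the median of KRT8, gave r = 0.98. KRT7 showed no such relation, with r = -0.07 to KRT8 (exact permutation p = 0.768, adjusted 0.853) and r = -0.03 to KRT18 (exact permutation p = 0.91, adjusted 0.91). The corresponding Spearman values were -0.01 (exact permutation p = 0.972, adjusted 1) and 0 (exact permutation p = 1, adjusted 1). KRT19 had r of 0.37 to both KRT8 and KRT18 and -0.17 to KRT7, with Benjamini-Hochberg adjusted exact permutation p of at least 0.626, on counts of 2 to 17. With the 2 libraries farthest from the median of the first gene left out, r was -0.02 for KRT7 with KRT8, 0.03 for KRT7 with KRT18 and -0.32 for KRT7 with KRT19. It was 0.03 for KRT8 with KRT19 and 0.61 for KRT18 with KRT19, so these relations moved with the libraries used.

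The library trend on transcript length was set against each gene in the same family of tests. Its Pearson r within lines was 0.46 with KRT7, -0.42 with KRT8, -0.32 with KRT18 and -0.37 with KRT19, each with an adjusted exact permutation p of 0.626, and Spearman rho was 0.41, -0.35, -0.36 and -0.40 with an adjusted exact permutation p of 0.596 each. Leaving out HORMAD1 replicate 1 and CT83 replicate 3 turned the value for KRT8 to 0.09 and left 0.22 for KRT7, -0.05 for KRT18 and -0.23 for KRT19.

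**Figure D5:**
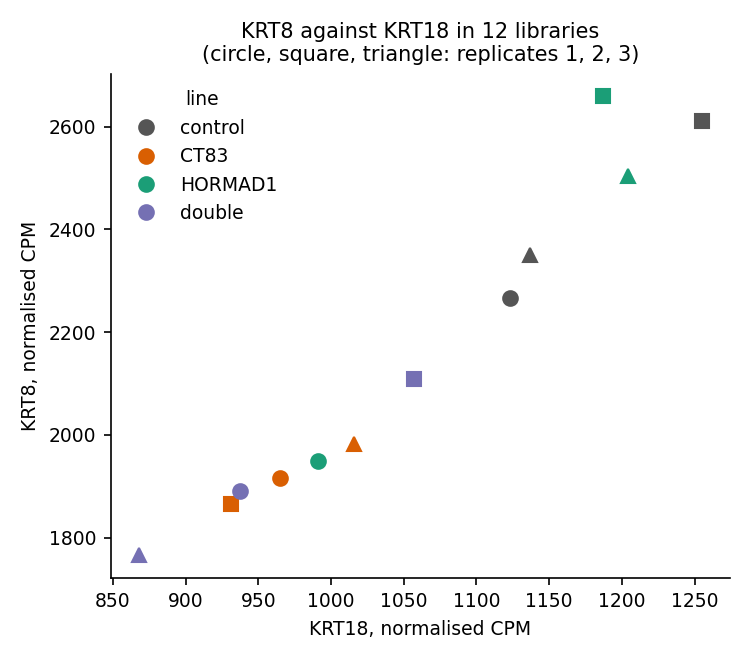
KRT8 against KRT18 in normalised CPM for the 12 libraries, coloured by line, with circles, squares and triangles for replicates 1, 2 and 3. KRT18 and KRT8, given in that order, rise together from double replicate 3 (868 and 1766 CPM) to HORMAD1 replicate 3 (1204 and 2503 CPM) and control replicate 2 (1255 and 2611 CPM), and HORMAD1 replicate 1 (991 and 1949 CPM) sits among the CT83-carrying libraries.

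The ratio of the partners was nearly constant. Per transcript length, KRT8 stood at 1.43 to 1.65 times KRT18 in the 12 libraries, with line means of 1.51 ± 0.0245 in control, 1.45 ± 0.0198 in the CT83 line, 1.54 ± 0.101 in the HORMAD1 line and 1.48 ± 0.0147 in the double line (SD, n = 3). On the log2 scale the ratio differed from control by -0.05 in the CT83 line (exact permutation test, two-sided, p = 0.1, adjusted over 6 ratio tests 0.3; with 3 libraries a side p cannot be smaller), by 0.03 in the HORMAD1 line (exact permutation p = 0.8, adjusted 0.96) and by -0.03 in the double line (exact permutation p = 0.3, adjusted 0.45). The 3 CT83 libraries (1.43 to 1.47) lay below the 3 control libraries (1.48 to 1.53). The summed type II members KRT7 and KRT8 stood at 4.29 to 5.85 times the summed type I members KRT18 and KRT19. That balance was 0.22 higher on the log2 scale in the double line than in control (exact permutation p = 0.1, adjusted 0.3), with 4.80 to 5.85 in the double libraries against 4.29 to 4.75. In the CT83 and HORMAD1 lines it differed from control by 0.07 (exact permutation p = 0.3, adjusted 0.45) and 0.01 (exact permutation p = 1, adjusted 1).

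A search over the 7767 protein-coding genes with a mean log2 CPM of at least 4 placed the partners first for each other. Over all 12 libraries, line differences included, KRT18 was the gene with the highest r to KRT8 and KRT8 that with the highest r to KRT18 (0.978), where the median r of all genes was 0.05 and 0.04. Next to KRT8 came MYEOV (0.948) and MAL2 (0.907), a membrane trafficking protein of polarised epithelia. Next to KRT18 came E2F2 (0.923) and MYBL2 (0.918), transcription factors of the cell cycle. KRT7 stood elsewhere: its closest genes were SNAI2 (0.91), a transcription factor of basal and mesenchymal cells, KLK5 (0.892), a secreted serine protease, and FHL2 (0.872), a LIM domain protein, while its r was 0.107 to KRT8 and 0.10 to KRT18. These 12 points share their libraries and scaling and fall into 4 lines, so the values are descriptive. MAL2 averaged 744 ± 37.8 CPM in control, 825 ± 228 in the HORMAD1 line, 580 ± 17.8 in the CT83 line and 584 ± 24.2 in the double line (SD, n = 3).

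The keratin loci overlap other annotated genes. KRT7-AS, an antisense RNA gene, was listed with 31.5% to 35.5% of the KRT7 count in every library. One of its exons contains all of exon 7 of the 9 exons of KRT7. These 221 bases are 12.6% of the KRT7 transcript. Use of strand in counting is not given in the sources used here, so reads in these shared bases cannot be assigned to KRT7 or KRT7-AS. The overlap was measured for the principal KRT7 transcript only. With the KRT7-AS counts added to KRT7, an alternative chosen after seeing the data, its log2 fold change was -0.15 in the CT83 line, -0.06 in the HORMAD1 line and 0.03 in the double line, and no member was called.

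KRT8 and KRT18 overlap each other head to head. Of the KRT18 transcript used for length, 375 bases (24%) fall within exons annotated for KRT8, and 173 bases of the KRT8 transcript fall within exons of KRT18, on opposite strands. How far shared reads contribute to the like values of the 2 genes was not tested. Processed pseudogenes are numerous for both: 51 entries carry a KRT8 pseudogene name and 68 a KRT18 one, against 5 for KRT19 and 0 for KRT7. They took few counts, 99 to 151 in all for KRT8 (0.36% to 0.65% of the KRT8 count) and 11 to 24 for KRT18 (0.0766% to 0.199%), and adding them to the parent genes changed no call.

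The other genes of the keratin system were read from lists chosen with earlier results of these data known. Of the other type II keratins, 7 of 24 passed the filter, and of the other type I keratins 8 of 27. In the CT83 main effect 0 of these 15 genes were called by edgeR, DESeq2 or limma-voom. An unadjusted edgeR p under 0.05 was found for 1 of 7 among type II, KRT81, which was lower. It was found for 2 of 8 among type I, KRT15, which was higher, and KRT34, which was lower. Of all tested genes, 6.21% had one. The median log2 fold changes of the other type II and type I keratins were -0.11 and -0.03, against -0.0010 for all genes. For the 3 simple keratins the median was -0.26, which is the value of KRT18 itself, while KRT7 was at -0.03. Lower values were not limited to the simple keratins: KRT80 was at -0.43 (SE 0.20), KRT81 at -0.17 (SE 0.07) and KRT86 at -0.15 (SE 0.07). The last pair is not taken as separate genes. KRT81 stood at 2829 to 2960 CPM in the 6 libraries with CT83, against 3235 to 3332 CPM in the control libraries and 2738 to 3704 CPM in the HORMAD1 libraries. Among the 18 keratins tested, KRT81, KRT86 and KRT34 were the others in which all 6 libraries with CT83 lay below all 3 control libraries. The same held for 1.29% of all tested genes. KRT34 had at most 24 counts in a library. The basal keratins KRT5, KRT14 and KRT17 were at 0.02 (SE 0.07), 0.34 (SE 0.16) and -0.12 (SE 0.10), and the basal transcription factor TP63 at 0.07 (SE 0.06). Vimentin (VIM), the intermediate filament protein of mesenchymal cells, averaged 279 CPM and was at 0.13 (SE 0.10). None of these genes was called.

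Linkers that tie keratin filaments to junctions, with DSP (317 CPM), PLEC (309 CPM) and PKP3 (140 CPM) as the highest, passed for 11 of 12 genes. All 11 had values below 0 in the double line against control, with a median of -0.27, and 10 of 11 had values above 0 in the CT83 line, with a median of 0.25, against -0.0015 and 0.0060 for all genes. 0 of 11 were called in either comparison by edgeR, DESeq2 or limma-voom, and 0 had an unadjusted edgeR p under 0.05. PLEC, which encodes a very long transcript, ranged with an SD of 408 CPM around a mean of 510 CPM in the CT83 line. That line holds 1 of the libraries with a positive length trend. Over all libraries PPL ranged from 12.5 to 134 CPM, EVPL from 4.05 to 40.5 and DST from 58.3 to 149. PKP2 ranged less, from 111 to 162 CPM. Double replicates 1 and 2 had trends of -0.05 and -0.03 per doubling of transcript length. The part of PLEC and of the length trend in these medians was not tested. Proteins that bind or cleave simple keratins, with the 14-3-3 proteins YWHAZ (2123 CPM) and SFN (1113 CPM) and the scaffold RACK1 (1353 CPM) as the highest, passed for 13 of 13 genes. In the CT83 main effect their median was -0.0016 and 0 were called by edgeR, DESeq2 or limma-voom. The caspase CASP6, which was higher, had an unadjusted edgeR p under 0.05. Of 18 transcription factors listed as regulators of simple keratin genes, all tested, 15 had values below 0 in the CT83 main effect with a median of -0.04. Calls by any of the 3 tools numbered 0, and ETS2, which was lower, had an unadjusted edgeR p under 0.05.

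Of the 13 luminal lineage genes that passed the filter, 10 had values below 0 in the CT83 main effect. Their median was -0.20, against -0.0010 for all genes. In the double line against control 10 of these 13 luminal genes were below 0, with a median of -0.31. In the CT83 line against control 8 of 13 had values below 0, with a median of -0.06 against 0.0060 for all genes, and CD24 alone had an unadjusted p under 0.05. 0 of 13 were called by edgeR or limma-voom. In the main effect 6 had an unadjusted edgeR p under 0.05, where 6.21% of all tested genes did. They were the tight junction gene CLDN4 at -0.38 (SE 0.08), CD24 at -0.39 (SE 0.12), ALDH1A3 at -0.25 (SE 0.07), the transcription factors ELF3 at -0.38 (SE 0.13), GATA3 at -0.35 (SE 0.14) and FOXA1 at -0.20 (SE 0.09). CLDN4 was called by DESeq2 in the main effect, where that tool called 0.205% of all tested genes. EPCAM was at -0.07 (SE 0.08). The basal lineage list had a median of -0.01 over 19 genes, 10 of them below 0. The edgeR and limma-voom calls among them numbered 0, and DESeq2 called TAGLN. An unadjusted edgeR p under 0.05 was found for 3: KRT15, which was higher, and TAGLN and OXTR, which were lower.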

How the data were processed

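The 12 libraries of polyadenylated RNA were grouped by the labels. The deposited values are expected counts, that is estimates per gene that may hold fractions. The labels' protocols name a NEBNext Ultra kit and added ERCC RNA, and the files list 0 ERCC entries. The submitters' processing notes name Trimmomatic 0.39, STAR 2.7.5c, Picard, SAMtools and both hg38 and hg19. The counting tool, the annotation release and any use of strand were not given in the sources used here. Of the values, 6.75% were not whole and all were rounded, since the design had assumed raw counts.

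R 4.3.3 with edgeR 4.0.16 was used: filterByExpr (minimum count 10), TMM scaling and 1 robust quasi-likelihood fit of all 12 libraries with 8 residual degrees of freedom. Benjamini-Hochberg adjustment ran over all 15616 genes in each of 9 comparisons, with calls under 0.05. The 95% intervals used a t distribution with 8 degrees of freedom, while the p values came from the quasi-likelihood test, so interval and p need not match. Log2 CPM used a prior count of 2. Abundant genes are the 627 with a mean log2 CPM of at least 8. Of the identifiers, 61520 had a symbol and 58339 were in GENCODE 29, the source of coordinates, lengths and the sequences behind the identities. The alternatives were DESeq2 1.42.0, limma 3.58.1 (voom), other scalings and filters, a replicate block, a length correction, added pseudogene or antisense counts and leaving out libraries. Pairwise identities came from Biopython 1.88 and permutation tests from Python 3.11.15.

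The 4 members and all gene lists were chosen with earlier results of these data known. Named genes were the members, both transgenes, the 3 genes most correlated with each member, the 3 highest genes of each list and fixed markers. List genes named for an unadjusted p were chosen after their values were seen. In a simulation of the double line against control (15616 genes), the fit recovered 50.7%, 86.6% and 100% of genes changed 1.5-fold, 2-fold and 4-fold, and called 7 unchanged genes. The simulated libraries held no trend on transcript length and no change smaller than 1.5-fold. The recovery of changes as small as those of KRT8 and KRT18 was therefore not tested. Replicates of a line differed by more than sampling noise (chi-square per degree of freedom 2.49 to 26.1). Floors of 3 counts cover counting error only. Values of some genes and some sequences are not reported here.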

Additional observations from a re-analysis of the deposited data

How the results depend on the processing

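In the comparisons with control, 0 members were called in every alternative run, and KRT8 and KRT18 stayed below 0 in the CT83 line, the double line and the CT83 main effect in all of them. The number of members called for the CT83 main effect was 1 with no low-count filter, 0 to 2 when 1 library was left out and 2 without the 3 libraries with the most positive length trend. For the double line against the HORMAD1 line and the HORMAD1 line against the CT83 line it was 0 to 1 when 1 library was left out and 2 without the 3 libraries. Over all genes, calls for the CT83 main effect numbered 5 as reported, 0 to 97 when 1 library was left out and 1 to 761 under the other alternatives. The calls for the HORMAD1 line against the CT83 line numbered 2, 1 to 115 and 1 to 927, and those for the double line against the HORMAD1 line 7, 0 to 39 and 0 to 339. Against control, the other alternatives gave 0 to 119 calls in the CT83 line, 0 to 6 in the HORMAD1 line and 1 to 13 in the double line.

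Values near 0 changed sign. When 1 library was left out, the HORMAD1 line against control ranged from -0.11 to 0.10 for KRT8 and from -0.11 to 0.034 for KRT18, the HORMAD1 main effect from -0.058 to 0.050 and from -0.080 to 0.0021, and the interaction from -0.11 to 0.11 and from -0.065 to 0.092. KRT7 in the double line against control ranged from -0.013 to 0.057. The log2 ratios in the HORMAD1 line ranged from -0.024 to 0.070 for KRT8 to KRT18 and from -0.035 to 0.043 for type II to type I. Without the 3 libraries together, KRT8 and KRT18 were at 0.16 and 0.083 in the HORMAD1 line against control, 0.093 and 0.046 in the HORMAD1 main effect, and -0.14 and -0.074 in the interaction. With library size alone the interaction was -0.016 and -0.012, and with the length trend removed -0.0092 and -0.029, with KRT7 at -0.0029 in the double line against control. Of the correlations, line means kept gave 0.11 for KRT7 with KRT8, 0.10 for KRT7 with KRT18 and -0.0095 for KRT7 with the length trend. DESeq2 size factors gave 0.024 for KRT7 with KRT18. Without the 2 farthest libraries the values were 0.030 for KRT7 with KRT18 and 0.093 for KRT8 with the length trend. The cause of these changes was not tested. A fit of only the groups compared was not run for the main effects and the interaction, which use all 4 lines.

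Replicate numbers are shared between lines, but the labels do not say what they mark. Deviations of same-numbered libraries had correlations of -0.354 to 0.351 over 18 pairs, 6 of them over 0.1, and 6 of 12 libraries correlated best with their own number, so the numbers were not taken as pairs. With the replicate block the CT83 main effect was -0.31 for KRT8 and -0.25 for KRT18, 0 members were called in any comparison, and calls over all genes for that effect went from 5 to 3. With depths of 9898845 to 14159740 counts, KRT19 at 2 to 17 counts did not pass the filter for the reported fit, and where it was fitted it was called in no comparison.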
